A study of Saccharomyces cerevisiae with 24 samples.

Results

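The ergosterol pathway of budding yeast was followed through 32 genes, chosen by symbol for their known roles in making, regulating, esterifying, acetylating or binding sterols. All 32 were measured, each by 1 probe set, among 5449 genes in all. The arrays measured RNA from 24 aerobic, glucose-limited cultures at steady state (1 L bioreactors, 30 °C, pH 5.0, 10 g/L glucose, dilution rate 0.1 per h) of 8 Saccharomyces cerevisiae strains, with 3 biological replicates each. The strains were a wild type reference, the single deletion strains sip1Δ, sip2Δ and gal83Δ, the double deletion strains sip1Δ sip2Δ, sip1Δ gal83Δ and sip2Δ gal83Δ, and the triple deletion strain sip1Δ sip2Δ gal83Δ, all written below without the Δ. The deleted genes encode β-subunits of Snf1, a kinase of the AMP-activated family: each Snf1 complex holds one of Sip1, Sip2 or Gal83, which bears on where the kinase goes in the cell. The labels name no other allele and do not say how many clones a strain stands for. They call the replicates biological and say no more of them, so p-values measure the spread between these cultures.

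Ergosterol is the main sterol of fungal membranes. Its synthesis starts from acetyl-CoA, runs through mevalonate to farnesyl diphosphate and squalene, and then through lanosterol and a series of demethylation, isomerisation, desaturation and methylation steps, several of which need oxygen and haem. The paralogous zinc-cluster factors Upc2 and Ecm22 activate many of these genes when sterols are scarce, and Upc2 also activates genes of sterol uptake and of anaerobic growth. Free sterols are stored as esters by the acyltransferases Are1 and Are2, while Atf2 and Say1 add and remove acetyl groups on sterols.

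Values are log2 probe-set intensities. A change is a log2 difference ± the standard error from 1 linear fit to all 24 arrays, and a gene is called at an adjusted p under 0.05 from limma over all 5449 genes. Levels of different probe sets cannot be compared, so only strains are. In bulk RNA, fewer cells with a transcript and less transcript per cell cannot be told apart. The deleted genes read between 2.02 and 2.09 in nearly all arrays of their strains. The exceptions were GAL83 at 9.72 in the array labelled sip1 gal83 replicate 2 and SIP2 at 6.001 in the array labelled sip1 sip2 replicate 3. A further array, sip2 gal83 replicate 1, stood apart from its strain for several members named below, and counts were also computed without these 3 arrays. Arrays are grouped by their labels throughout, so those called without GAL83 include the one with GAL83 signal. The median change of all genes against the reference was -0.09 in sip1, -0.12 in sip2 and -0.10 in gal83, and members of these strains are read beside those shifts.

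Most genes of the pathway stood higher on average in the strains without GAL83. In gal83 against the reference, only 2 members were called higher and 4 lower, beside 10.6% and 30.6% of all genes. After median centring this split was 14 and 1, beside 23.2% and 18.3%. Averaged over the 4 strains that lack GAL83 against the 4 that keep it, 24 of the 32 members were higher, 2 were lower and 6 did not pass. Over all genes 19.6% were called higher and 19.7% lower in this comparison. The median change was 0.21 over the members and -0.000342 over all genes. ATF2, HES1 and UPC2 moved furthest, and the other 21 called rises lay between 0.08 and 0.43. All 26 calls held in every alternative in which the gene was tested. Of the 32 members 28 differed among the 8 strains by limma's moderated F test, beside 71.4% of all genes. After subtracting array medians the split was 24 higher and 2 lower, beside 19.9% and 18.7% of all genes, and it was 24 higher and 3 lower without the 3 doubted arrays. For 0 of the members did all 12 arrays labelled without GAL83 lie above all 12 with it, as for 0.165% of all genes. Leaving out the array with GAL83 signal, a choice made after seeing the data, the other 11 did so for 1 member, ERG6, and for 0.220% of all genes. Further groupings of arrays that are said below to lie apart were mostly read from each gene's own values. Where no share of all genes stands beside them, none was counted, so how common such a gap is was not tested.

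**Figure D1:**
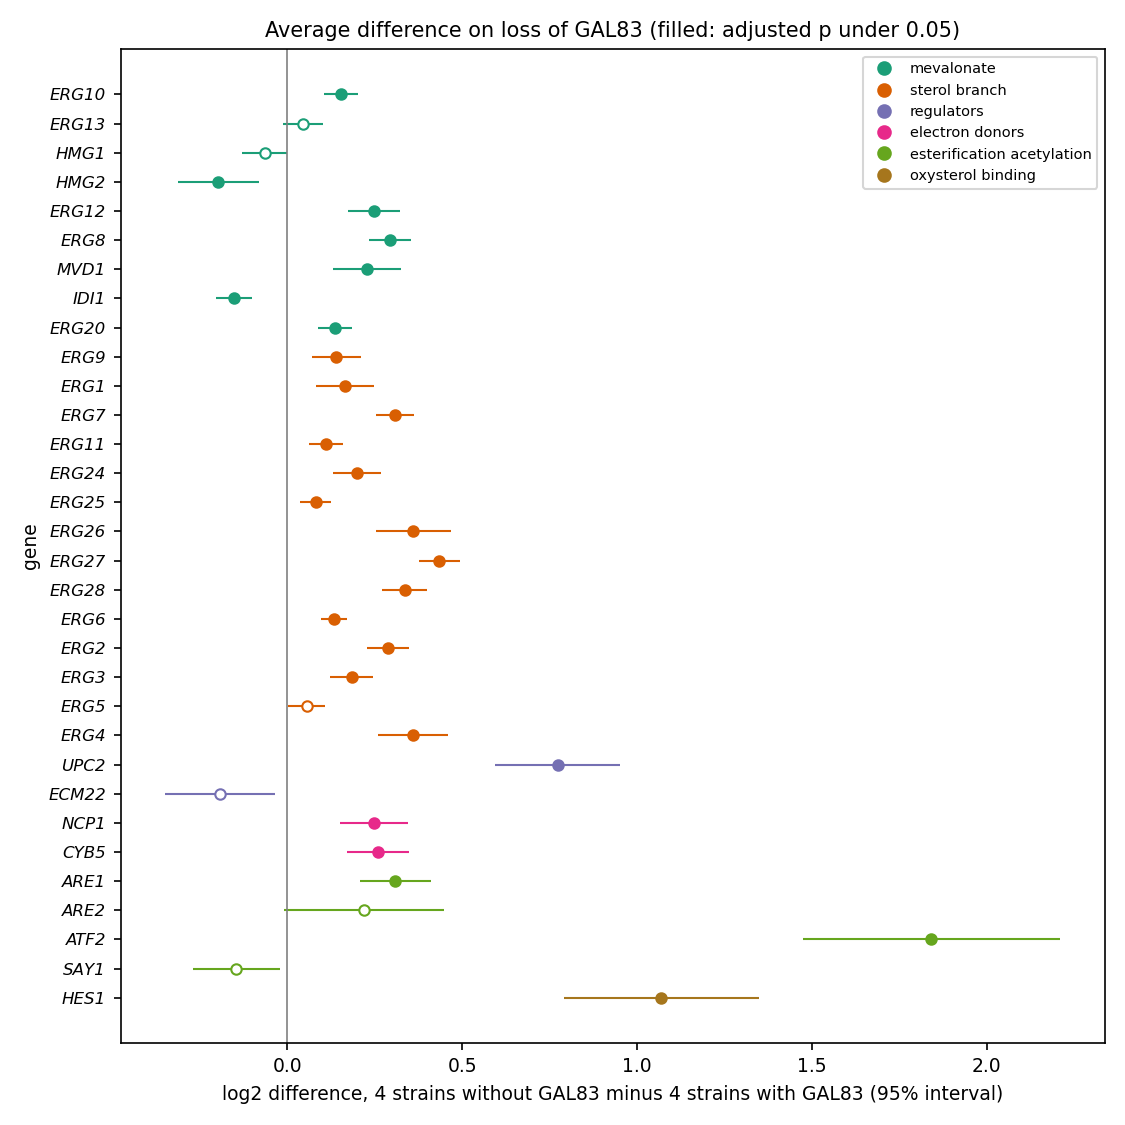
Log2 difference between the mean of the 4 strains without GAL83 and the mean of the 4 strains with GAL83 for each of the 32 genes, with 95% intervals from the fit and colours for the role in the pathway. Filled points passed the test, and all points but those of HMG1, HMG2, IDI1, ECM22 and SAY1 lie to the right of 0.

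The same difference was read array by array, as the median over the 32 members of the difference from the mean of the reference arrays. It was 0.22, 0.17 and 0.25 in the sip1 gal83 arrays, 0.12, 0.25 and 0.16 in sip2 gal83, and 0.28, 0.27 and 0.22 in the triple strain. These 9 arrays all stood above the 12 arrays of strains with GAL83, whose highest value was 0.11 in sip1 sip2 replicate 3. The gal83 arrays gave 0.04, 0.02 and 0.02, close to the reference arrays at 0.03, 0.00 and -0.04. Over all genes the medians of the gal83 arrays were -0.09, -0.11 and -0.08, so the members' median lay above that of all genes in each of them. It also did so in some arrays with GAL83, such as sip1 sip2 replicate 3 (0.11 beside -0.03) and sip1 replicate 2 (0.03 beside -0.08). In others it lay below, such as sip1 replicate 1 (-0.14 beside -0.08).

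**Figure D2:**
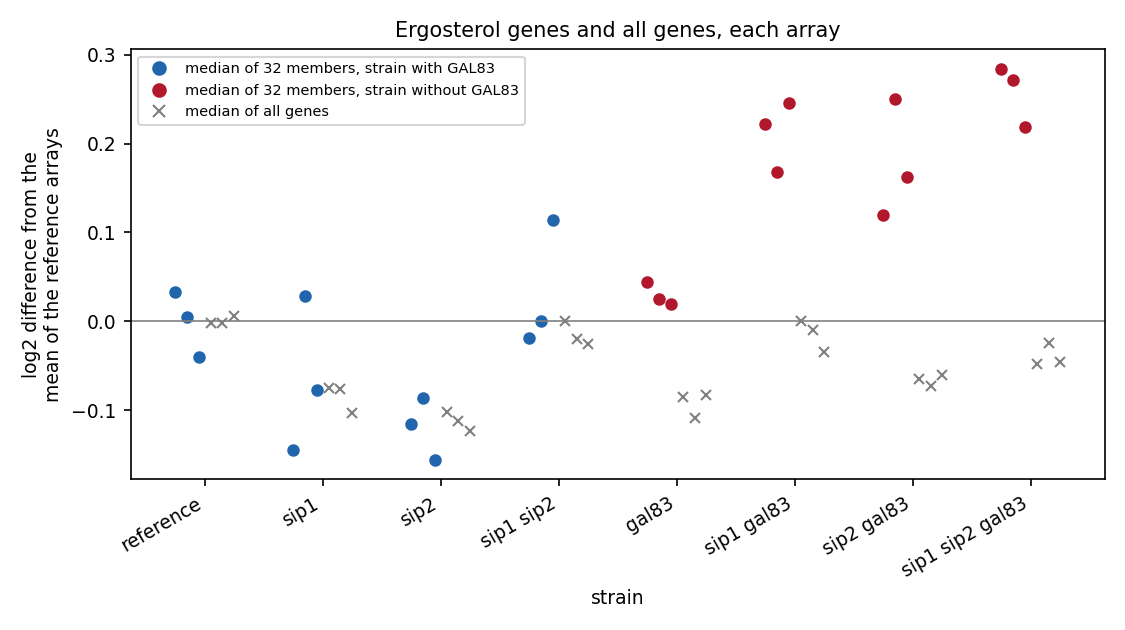
Each array's median log2 difference from the mean of the 3 reference arrays, over the 32 ergosterol genes (circles, blue with GAL83 and red without) and over all genes (crosses), by strain. The circles of sip1 gal83, sip2 gal83 and the triple strain lie between 0.12 and 0.28, while the crosses of all arrays lie between -0.12 and 0.01.

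In the mevalonate part of the pathway, 5 of 9 genes were higher on average without GAL83, 2 were lower and 2 did not pass. Over all genes 19.6% were called higher and 19.7% lower. ERG8 (phosphomevalonate kinase, YMR220W) read 13.26, 13.29 and 13.31 in sip1 gal83, 13.33, 13.22 and 13.25 in sip2 gal83, and 13.26, 13.26 and 13.35 in the triple strain. It read 13.04, 13.00 and 12.93 in the reference, 12.98, 12.91 and 13.02 in gal83, 12.85, 12.89 and 12.78 in sip1, 12.67, 12.90 and 12.75 in sip2, and 12.94, 13.04 and 13.14 in sip1 sip2. With the grouping read from these values, the 9 arrays of the double and triple strains without GAL83 lay above all 15 others. The share of all genes that did so was not counted. ERG8 rose by 0.29 ± 0.028 on average (adjusted p = 4.06e-07). ERG12 (mevalonate kinase) rose by 0.25 ± 0.035 and ERG20 (farnesyl diphosphate synthase) by 0.13 ± 0.023. ERG13, encoding HMG-CoA synthase, stood at 0.04 ± 0.027, with a 95% interval from -0.01 to 0.10, and did not pass (adjusted p = 0.211), though it did without sip2 gal83 replicate 1 (adjusted p = 0.0255).

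ERG10 (acetyl-CoA acetyltransferase, the first step, YPL028W) rose on average but not in the gal83 single strain. Its mean was 14.24 in gal83 and 14.23 in sip2, beside 14.39 in the reference. The difference between gal83 and the reference was -0.15, and -0.04 after median centring, where it did not pass (adjusted p = 0.617). It read 14.45, 14.39 and 14.34 in the reference, 14.21, 14.24 and 14.28 in gal83, 14.32, 14.43 and 14.28 in sip1, 14.22, 14.28 and 14.19 in sip2 and 14.34, 14.40 and 14.49 in sip1 sip2. It read 14.59, 14.56 and 14.57 in sip1 gal83, 14.55, 14.51 and 14.40 in sip2 gal83 and 14.68, 14.68 and 14.71 in the triple strain, whose 3 arrays were the highest of all. The average rise was 0.15 ± 0.023 (adjusted p = 6.09e-05). MVD1 (mevalonate diphosphate decarboxylase, YNR043W) read 13.11, 13.00 and 13.11 in the reference, 13.33, 13.42 and 13.20 in sip1, 13.14, 13.15 and 13.12 in sip2, 13.18, 13.25 and 13.37 in gal83 and 13.20, 13.23 and 13.35 in sip1 sip2. It read 13.53, 13.49 and 13.62 in sip1 gal83, 13.00, 13.47 and 13.41 in sip2 gal83 and 13.53, 13.61 and 13.64 in the triple strain, and replicate 1 of sip2 gal83 stayed at the level of the reference. MVD1 rose by 0.23 ± 0.046 on average (adjusted p = 0.0008).

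The genes for HMG-CoA reductase, the main regulated step, did not rise on average. HMG2 (YLR450W) read 11.77, 11.83 and 11.97 in the reference and 11.92, 11.76 and 11.82 in sip1 sip2. It read 11.16, 11.25 and 11.31 in sip1, 11.48, 11.37 and 11.33 in sip2, 11.21, 11.22 and 11.26 in gal83, 11.49, 11.63 and 11.38 in sip1 gal83, 10.91, 11.49 and 11.45 in sip2 gal83, and 11.59, 11.50 and 11.46 in the triple strain. With the grouping read from the values, all 18 arrays of these 6 strains lay below the 6 arrays of the reference and sip1 sip2. Its average fall without GAL83 was 0.20 ± 0.055 (adjusted p = 0.00841). HMG1 (YML075C) read 14.52, 14.51 and 14.46 in the reference, 14.24, 14.38 and 14.40 in sip1, 14.20, 14.33 and 14.26 in sip2, 14.33, 14.29 and 14.26 in gal83 and 14.49, 14.48 and 14.59 in sip1 sip2. It read 14.57, 14.57 and 14.50 in sip1 gal83, 14.10, 14.39 and 14.25 in sip2 gal83 and 14.33, 14.28 and 14.21 in the triple strain. The reference, sip1 sip2 and sip1 gal83 arrays all lay above the other 15. On average HMG1 stood at -0.07 ± 0.030 and did not pass (adjusted p = 0.0957), though it did without sip1 replicate 1 (adjusted p = 0.0452) or sip2 gal83 replicate 2 (0.0197).

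IDI1 (isopentenyl diphosphate isomerase, YPL117C) was the other mevalonate gene to fall. It read 13.11, 13.16 and 13.20 in sip1 beside 12.95, 12.99 and 12.93 in sip1 gal83, 13.26, 13.20 and 13.09 in sip2 beside 13.07, 12.92 and 12.94 in sip2 gal83, and 13.06, 13.08 and 12.98 in sip1 sip2 beside 12.85, 12.82 and 12.83 in the triple strain. The arrays did not overlap within any of these 3 pairs. It fell by 0.20 ± 0.049 in the first pair (adjusted p = 0.00388), by 0.20 ± 0.049 in the second (adjusted p = 0.00349, but 0.11 with these strains fitted alone) and by 0.20 ± 0.049 in the third (adjusted p = 0.00418). In gal83, at 13.04, 13.03 and 13.15, the change from the reference at 13.12, 13.11 and 13.01 was -0.004 with a 95% interval from -0.11 to 0.10 and did not pass (adjusted p = 0.957).

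From squalene to ergosterol, 13 of 14 genes were higher on average without GAL83, beside 19.6% of all genes. ERG5, encoding a sterol desaturase, stood at 0.05 ± 0.025 and did not pass (adjusted p = 0.0942). Without sip1 replicate 3 it did (adjusted p = 0.0476). ERG27, encoding the ketosterol reductase of C-4 demethylation (YLR100W), had the smallest adjusted p of the members. It read 13.55, 13.41 and 13.58 in sip1 gal83, 13.61, 13.58 and 13.55 in sip2 gal83, and 13.59, 13.62 and 13.63 in the triple strain. The reference gave 13.16, 13.15 and 13.13, gal83 13.07, 13.07 and 13.07, sip1 12.86, 13.07 and 12.83, sip2 12.79, 12.86 and 12.81, and sip1 sip2 13.09, 13.09 and 13.27. The double and triple strains without GAL83 were clear of every other array, while the gal83 arrays lay just below the reference. The average rise was 0.43 ± 0.028, or 1.35-fold (adjusted p = 4.74e-09). Of the 14 genes of this branch, 0 passed in gal83 against the reference in the main fit, with changes from -0.15 to 0.14. Under alternatives some did, such as ERG28 after median centring (adjusted p = 0.00649), with array weights (0.0269) or with both strains fitted alone (0.0212).

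ERG26, encoding the sterol dehydrogenase that works with Erg27 (YGL001C), read 13.98, 13.97 and 14.02 in sip1 gal83, 14.16, 13.84 and 13.71 in sip2 gal83 and 13.90, 13.92 and 13.98 in the triple strain. It read 13.53, 13.54 and 13.43 in the reference, 13.20, 13.54 and 13.38 in sip1, 13.25, 13.38 and 13.13 in sip2, 13.59, 13.60 and 13.89 in sip1 sip2 and 13.40, 13.46 and 13.43 in gal83. Replicate 3 of sip1 sip2, the array with SIP2 signal, reached into the range of sip2 gal83, and the gal83 arrays stayed within the range of the strains that keep the gene. ERG26 rose by 0.36 ± 0.051 on average (adjusted p = 2.96e-05).

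ERG4, encoding the sterol reductase of the last step (YGL012W), read 13.92, 14.03 and 14.03 in the triple strain, 13.75, 13.63 and 13.81 in sip1 gal83 and 13.67, 13.82 and 13.62 in sip2 gal83. It read 13.34, 13.28 and 13.28 in the reference, 13.16, 13.40 and 13.28 in sip1, 13.31, 13.22 and 13.04 in sip2, 12.97, 13.30 and 13.17 in gal83, and 13.20, 13.39 and 13.53 in sip1 sip2. The triple strain was highest, and the arrays of both double strains without GAL83 also lay above all others. The average rise was 0.36 ± 0.047 (adjusted p = 1.28e-05). ERG28, encoding the scaffold protein of the C-4 demethylation complex (YER044C), read 13.62, 13.59 and 13.53 in the reference, 13.49, 13.66 and 13.55 in sip1, 13.56, 13.51 and 13.53 in sip2 and 13.57, 13.52 and 13.75 in sip1 sip2. It read 13.73, 13.71 and 13.74 in gal83, 13.80, 13.85 and 14.01 in sip1 gal83, 14.13, 14.05 and 13.97 in sip2 gal83 and 13.97, 13.95 and 13.99 in the triple strain. ERG28 was one of 4 genes of this branch, with ERG1, ERG6 and ERG2, whose gal83 arrays all lay above the reference, as they did for 19.1% of all genes. That change was 0.14 ± 0.061 and did not pass (adjusted p = 0.0689, but 0.00649 after median centring and 0.0279 without the 3 doubted arrays), while the average rise was 0.34 ± 0.030 (adjusted p = 1.7e-07).

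ERG24, encoding another sterol reductase (YNL280C), read 13.72, 13.65 and 13.62 in the reference, 13.17, 13.35 and 13.47 in sip1, 13.41, 13.44 and 13.30 in sip2, 13.65, 13.65 and 13.47 in gal83 and 13.65, 13.65 and 13.69 in sip1 sip2. It read 13.74, 13.70 and 13.86 in sip1 gal83, 13.87, 13.85 and 13.79 in sip2 gal83 and 13.61, 13.67 and 13.66 in the triple strain. The triple strain overlapped with sip1 sip2, and the average rise was 0.20 ± 0.032 (adjusted p = 0.00012). ERG2 (sterol isomerase, YMR202W) read 14.95, 14.88 and 14.85 in the reference, 14.77, 14.84 and 14.81 in sip1, 14.86, 14.83 and 14.78 in sip2, 15.02, 14.98 and 14.98 in gal83, 14.86, 14.85 and 15.10 in sip1 sip2, 15.13, 15.06 and 15.25 in sip1 gal83, 15.25, 15.22 and 15.15 in sip2 gal83 and 15.29, 15.26 and 15.23 in the triple strain. Only sip1 sip2 replicate 3 of the arrays with GAL83 reached into the range of those without, and the average rise was 0.29 ± 0.028 (adjusted p = 4.69e-07). Of the other called genes, ERG7 (lanosterol synthase) rose by 0.31 ± 0.026 and ERG3 (a sterol desaturase) by 0.18 ± 0.029. ERG1 (squalene epoxidase), ERG9 (squalene synthase), ERG6 (sterol methyltransferase), ERG11 (lanosterol demethylase, the target of azole drugs) and ERG25 (methylsterol oxidase) rose by 0.08 to 0.16.

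The genes of both electron donors to the oxygen-using steps rose too. NCP1 (cytochrome P450 reductase, YHR042W) read 13.74, 13.67 and 13.68 in the reference, 13.48, 13.53 and 13.43 in sip1, 13.68, 13.59 and 13.39 in sip2, 13.62, 13.57 and 13.45 in gal83 and 13.76, 13.85 and 13.92 in sip1 sip2. It read 14.10, 14.03 and 14.05 in sip1 gal83, 13.60, 14.05 and 14.02 in sip2 gal83 and 14.12, 14.07 and 14.01 in the triple strain, so that replicate 1 of sip2 gal83 lay below the reference. Its average rise was 0.25 ± 0.046 (adjusted p = 0.000408). CYB5 (cytochrome b5, YNL111C) read 13.82, 13.76 and 13.51 in the reference and 13.75, 14.02 and 13.83 in sip1 sip2, 13.93, 14.11 and 14.12 in sip1, 13.97, 14.09 and 13.91 in sip2 and 14.19, 14.19 and 14.24 in gal83. It read 14.06, 14.08 and 14.18 in sip1 gal83, 14.31, 14.21 and 14.09 in sip2 gal83 and 14.05, 14.17 and 14.17 in the triple strain. All strains but sip1 sip2 were clear of the reference, and the average rise without GAL83 was 0.26 ± 0.042 (adjusted p = 9.99e-05).

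Of the sterol regulators, UPC2 (YDR213W) rose on average without GAL83. It read 9.81, 9.94 and 9.89 in sip2, 10.36, 10.52 and 10.66 in sip1, 10.81, 10.05 and 10.73 in sip1 sip2 and 10.69, 10.46 and 10.46 in the reference. It read 11.16, 10.80 and 10.56 in the triple strain, 11.07, 11.01 and 11.27 in sip1 gal83, 11.45, 11.06 and 11.23 in gal83 and 11.33, 11.31 and 11.39 in sip2 gal83. In this order of strain means, from low to high, sip2 was clear of its neighbour and all other neighbouring strains overlapped. In a grouping read from the values, the 9 arrays of gal83, sip1 gal83 and sip2 gal83 lay above all 12 arrays with GAL83. The triple strain overlapped with those 12.

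Loss of GAL83 raised UPC2 by 0.77 ± 0.085 on average, or 1.71-fold (adjusted p = 1.61e-06), and the call held under all 32 alternatives, between 0.71 and 0.81. The rise was 1.46 ± 0.17 between sip2 and sip2 gal83 (adjusted p = 6.16e-06), 0.71 ± 0.17 between the reference and gal83 (adjusted p = 0.00301) and 0.61 ± 0.17 between sip1 and sip1 gal83 (adjusted p = 0.00957). Between sip1 sip2 and the triple strain the change was 0.31 ± 0.17, with a 95% interval from -0.05 to 0.67, and did not pass (adjusted p = 0.174). It was 0.07 without sip1 sip2 replicate 2 and 0.15 without triple replicate 1. These 4 changes differed from each other (limma's moderated F test, adjusted p = 0.00332), as they did for 20 of the 32 members and 58.2% of all genes. In sip2 itself UPC2 fell by 0.66 ± 0.17 against the reference (adjusted p = 0.00488), a call that ended under quantile normalization (adjusted p = 0.0555).

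ECM22 (YLR228C), the paralog of UPC2, read 10.23, 10.89 and 10.91 in sip2 gal83 and 10.87, 10.90 and 10.68 in the triple strain. It read 11.09, 11.26 and 11.36 in the reference, 11.09, 11.14 and 11.03 in sip1, 10.97, 11.07 and 11.17 in sip2, 11.06, 11.23 and 11.10 in gal83, 11.17, 11.47 and 11.38 in sip1 sip2 and 11.46, 11.49 and 11.06 in sip1 gal83. Both strains that lack SIP2 and GAL83 thus lay below every array of the other 6, a grouping read from the values. Against the reference ECM22 fell by 0.56 ± 0.15 in sip2 gal83 (adjusted p = 0.00845, but 0.159 with these strains fitted alone) and by 0.42 ± 0.15 in the triple strain (adjusted p = 0.0354). The difference in sip2 gal83 was -0.33 without its replicate 1 (adjusted p = 0.0458). The call in the triple strain ended without reference replicate 2 or 3 (adjusted p = 0.0847 and 0.122), without triple replicate 1 or 3 (0.0587 and 0.128), after subtracting array medians (0.0699) and under quantile normalization (0.0737). The average over GAL83 was -0.19 ± 0.075 and just missed the threshold (adjusted p = 0.0502), with adjusted p from 0.0241 to 0.104 over the alternatives.

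ATF2 and HES1 moved furthest of all members. ATF2, encoding the acetyltransferase that acts on sterols and alcohols (YGR177C), read 12.06, 11.95 and 12.20 in sip1 gal83, 11.75, 11.96 and 11.88 in sip2 gal83, and 11.96, 12.18 and 12.20 in the triple strain. It read 10.44, 10.10 and 9.98 in the reference, 10.53, 10.32 and 10.56 in gal83, 9.25, 10.25 and 9.92 in sip1, 9.01, 9.25 and 7.83 in sip2 and 9.83, 10.24 and 11.36 in sip1 sip2. The highest of the latter was replicate 3, the array with SIP2 signal, and the sip1 gal83 array with GAL83 signal, replicate 2, read like its strain. The average rise without GAL83 was 1.84 ± 0.17, or 3.58-fold (adjusted p = 3.04e-07). Between sip2 and sip2 gal83 it was 3.17 ± 0.35, or 8.97-fold (adjusted p = 3.97e-06), where sip2 itself lay 1.48 ± 0.35 lower than the reference (adjusted p = 0.00273). In gal83 against the reference the change was 0.30 ± 0.35, with a 95% interval from -0.44 to 1.03, and did not pass (adjusted p = 0.539).

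HES1, encoding an oxysterol-binding protein (YOR237W), read 11.65, 11.53 and 11.12 in the reference, 10.18, 10.58 and 11.32 in sip1, 10.97, 11.38 and 10.46 in sip2 and 11.11, 11.18 and 11.71 in sip1 sip2. It read 12.09, 12.18 and 11.63 in gal83, 11.90, 12.10 and 12.14 in sip1 gal83, 12.73, 12.61 and 12.25 in sip2 gal83 and 12.05, 12.23 and 12.13 in the triple strain. Of the 12 arrays labelled without GAL83, 11 lay above all 12 with it, and gal83 replicate 3 was the exception. Leaving out the array with GAL83 signal, 10 of 11 did. The average rise was 1.07 ± 0.13, or 2.10-fold (adjusted p = 6.64e-06).

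The ester and acetyl genes other than ATF2 were less uniform. ARE1 (sterol acyltransferase, YCR048W) read 10.23, 10.23 and 10.23 in the reference, 9.76, 10.00 and 9.90 in sip1, 10.11, 10.08 and 9.93 in sip2, 10.08, 10.27 and 10.21 in gal83 and 10.23, 10.24 and 10.38 in sip1 sip2. It read 10.45, 10.43 and 10.61 in sip1 gal83, 10.17, 10.68 and 10.35 in sip2 gal83 and 10.58, 10.59 and 10.61 in the triple strain, and rose by 0.31 ± 0.048 on average (adjusted p = 7.02e-05). The sip1 gal83 and triple arrays lay above every array with GAL83. Its counterpart ARE2 (YNR019W) read 10.31, 10.12 and 10.43 in sip1 sip2 and 11.19, 10.86 and 10.76 in the triple strain, and ran from 9.91 to 11.03 within gal83 and from 10.285 to 10.999 over the other 5 strains. ARE2 stood at 0.22 ± 0.11 on average, with a 95% interval from -0.01 to 0.45, and did not pass (adjusted p = 0.121), though it did without gal83 replicate 3 (adjusted p = 0.0154). SAY1 (sterol deacetylase, YGR263C) read 9.67, 9.76 and 10.27 in the reference, 9.50, 9.60 and 9.42 in gal83 and 9.40, 9.61 and 9.61 in sip2 gal83, and from 9.40 to 9.86 over the other 5 strains. Reference replicate 3 was the highest array, and the average of -0.15 ± 0.059 did not pass (adjusted p = 0.0569). It did without reference replicate 1 or 2 (adjusted p = 0.0188 and 0.0424) or sip1 sip2 replicate 1 (0.0432).

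**Figure D3:**
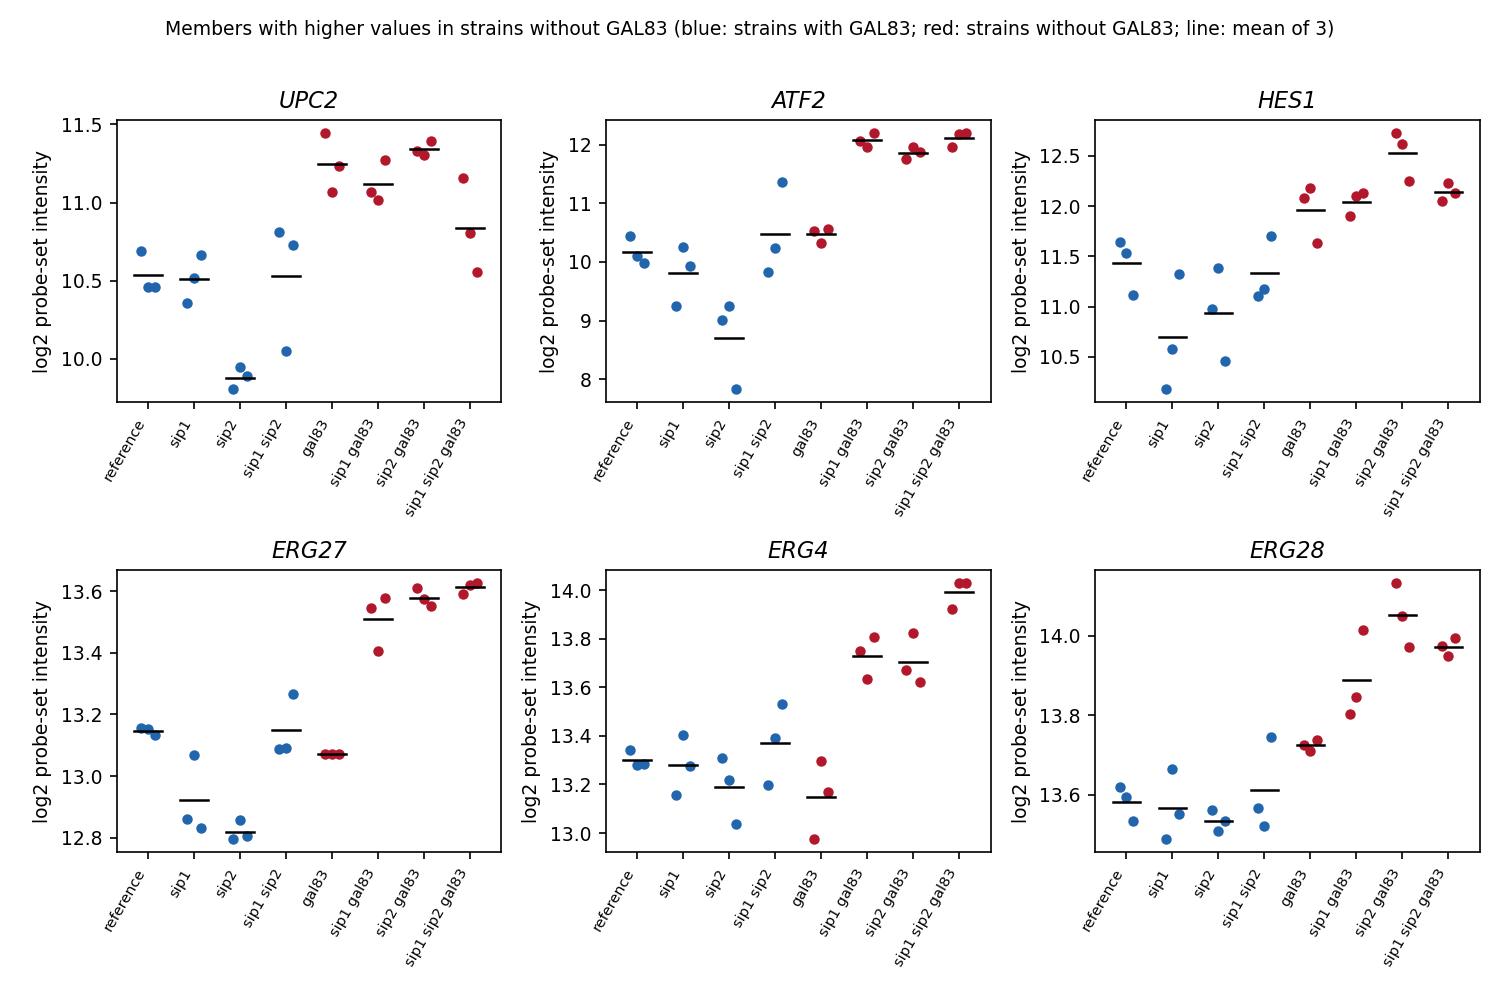
Log2 intensity of UPC2, ATF2, HES1, ERG27, ERG4 and ERG28 in each of the 24 arrays, by strain, blue with GAL83 and red without, with a line at the mean of 3. For ATF2, ERG27, ERG4 and ERG28 the red points of the double and triple strains lie above every blue point.

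**Figure D4:**
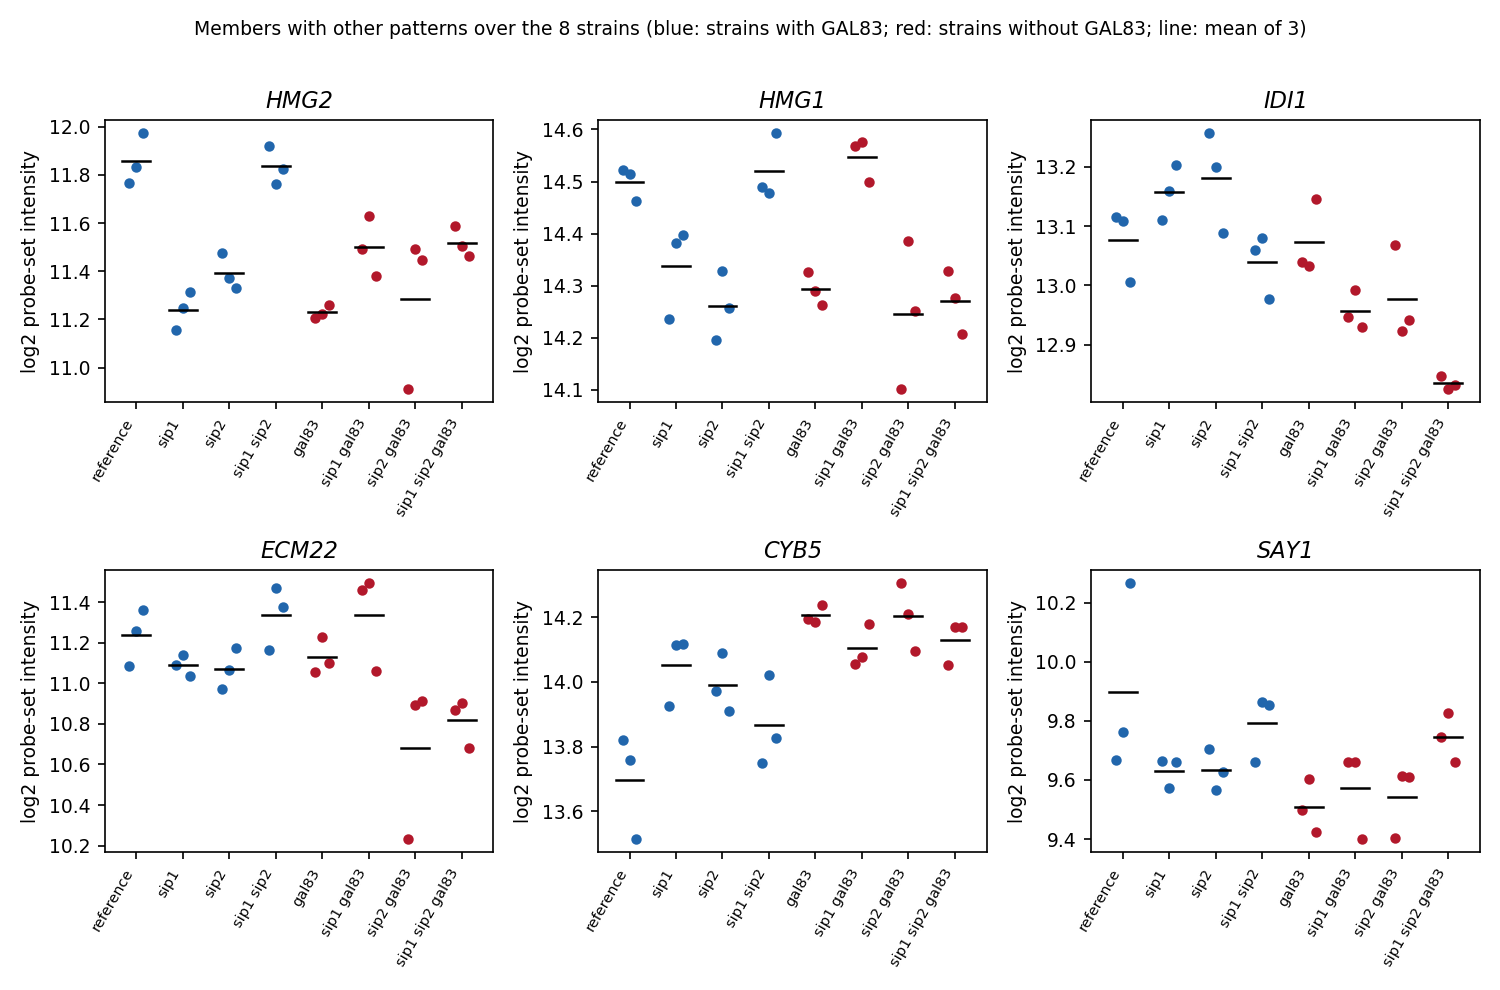
Log2 intensity of HMG2, HMG1, IDI1, ECM22, CYB5 and SAY1 in each of the 24 arrays, by strain, with a line at the mean of 3. HMG2 is highest in the reference and sip1 sip2, and ECM22 is lowest in sip2 gal83 and the triple strain.

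The loss of GAL83 was also compared within each genetic background, in 4 pairs of strains that share no array. Of the 32 members, 20 were higher and 1 lower in sip1 gal83 against sip1, beside 24.8% and 12.2% of all genes. In sip2 gal83 against sip2, 21 were higher and 2 lower, beside 23.4% and 13.7%. In the triple strain against sip1 sip2, 20 were higher and 4 lower, beside 14.1% and 18.0%, and this count of 24 was 15 without sip1 sip2 replicate 2 or triple replicate 2. After median centring the first pair gave 15 higher and 1 lower, beside 18.3% and 22.9% of all genes. The second gave 18 and 2, beside 17.6% and 18.9%, and the third 21 and 3, beside 17.6% and 14.7%. What follows is without centring. The median change of the members was 0.25, 0.25 and 0.23 in these 3 pairs, beside 0.04, 0.03 and -0.01 over all genes. In all 3 pairs, 14 members were called higher, namely ERG10, ERG12, ERG8, ERG20, ERG7, ERG27, ERG28, ERG6, ERG2, ERG3, ERG4, ARE1, ATF2 and HES1, where 4.96% of all genes were. IDI1 was called lower in all 3, as were 2.84% of all genes.

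Some calls within pairs rested on single arrays. ECM22 fell by 0.39 ± 0.15 between sip2 and sip2 gal83 (adjusted p = 0.0483), which ended without sip2 gal83 replicate 1 (adjusted p = 0.294) or when any sip2 array was left out (from 0.0589 to 0.145). Between sip1 sip2 and the triple strain, ARE2 rose by 0.65 ± 0.22 (adjusted p = 0.029) and HES1 by 0.81 ± 0.26 (adjusted p = 0.0274), and the ARE2 call ended without sip1 sip2 replicate 1 or 2 or triple replicate 1 or 2 (adjusted p from 0.0539 to 0.117). The HES1 call ended without sip1 sip2 replicate 1 or 2 or triple replicate 2 or 3 (from 0.064 to 0.101). HMG2 fell there by 0.32 ± 0.11 (adjusted p = 0.0351), which ended without sip1 sip2 replicate 1 or 3 or triple replicate 2 or 3 (from 0.0669 to 0.119) or after median centring (0.0571). ECM22 fell by 0.52 ± 0.15 (adjusted p = 0.0137), which ended without sip1 sip2 replicate 2 or triple replicate 3 (0.0588 and 0.0615).

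The fourth pair, gal83 against the reference, gave fewer calls. Here UPC2 and CYB5 were higher, and HMG2, SAY1, HMG1 and ERG10 were lower, which is 2 and 4 members beside 10.6% and 30.6% of all genes. CYB5 rose by 0.51 ± 0.083 and HMG2 fell by 0.63 ± 0.11. The members' median change was 0.01, beside -0.10 over all genes. After subtracting array medians 14 members were higher and 1 lower in this pair, beside 23.2% and 18.3% of all genes, and HMG1, ERG10 and SAY1 no longer passed (adjusted p = 0.3, 0.617 and 0.0709). ERG10 also did not pass without reference replicate 1 or gal83 replicate 1 (adjusted p = 0.0694 and 0.0546), nor SAY1 without reference replicate 3 or gal83 replicate 3 (0.0869 and 0.0532).

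**Figure D5:**
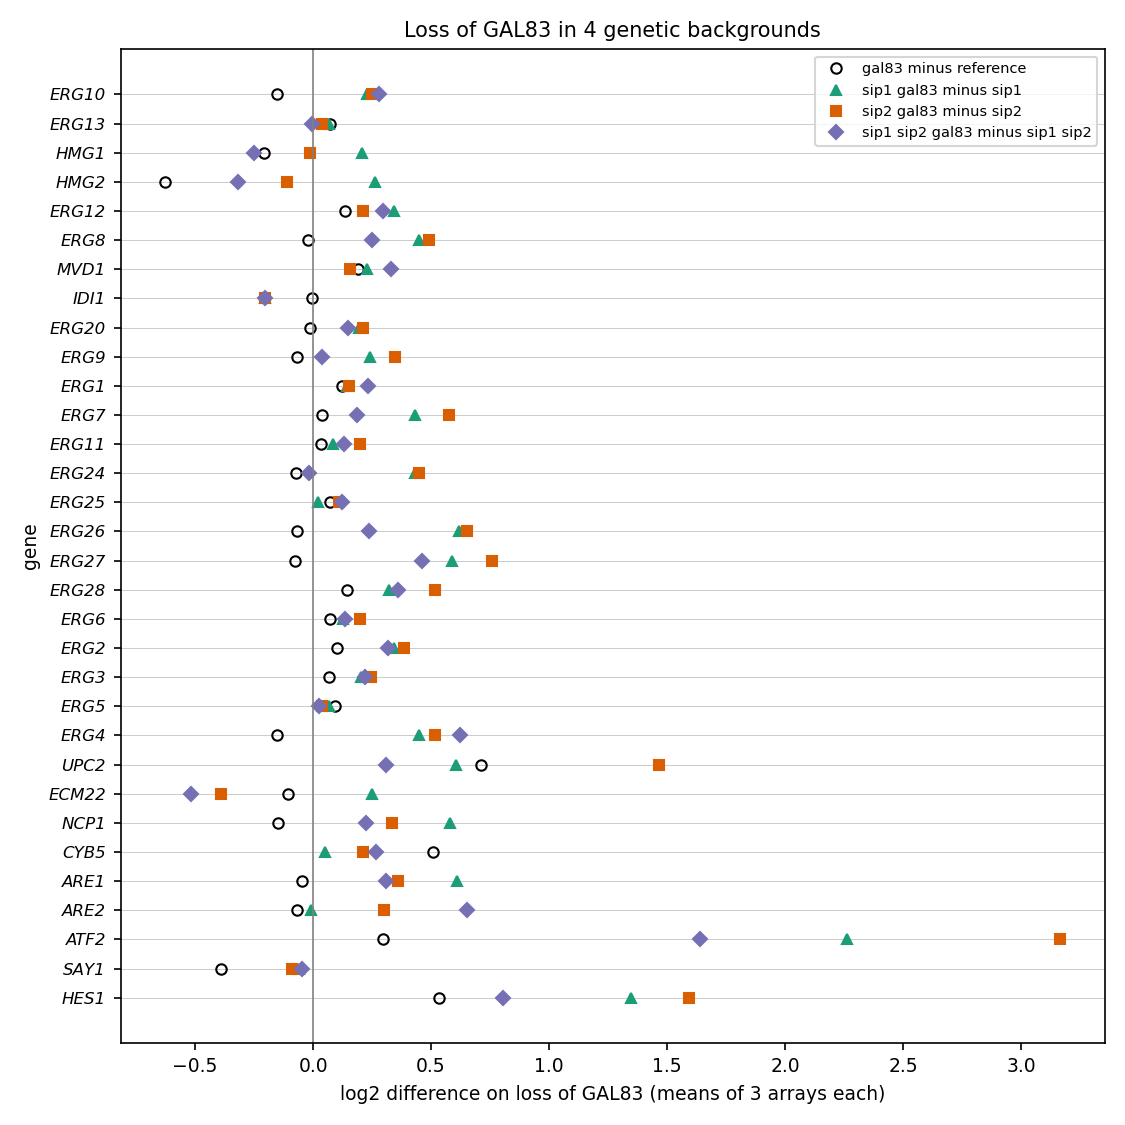
Log2 difference on loss of GAL83 for each of the 32 genes in 4 backgrounds, as differences of means of 3 arrays. The open circles (gal83 minus reference) lie left of the other symbols for most genes, and ATF2 spreads from 0.30 to 3.17.

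Since all 3 single deletion strains shifted against the reference, gal83 was also set against the mean of sip1 and sip2. Of the 32 members 8 were higher and 0 lower by limma, beside 2.24% of all genes higher and 3.74% called in either direction. UPC2 rose by 1.05 ± 0.15 (adjusted p = 0.000199), HES1 by 1.15 ± 0.23 (adjusted p = 0.00585) and ATF2 by 1.22 ± 0.30 (adjusted p = 0.0302). ERG24, ERG27, ERG7, ERG2 and ERG6 rose by 0.11 to 0.23, and each of these 5 calls ended without gal83 replicate 1 (adjusted p = 0.188, 0.109, 0.107, 0.221 and 0.225) and without gal83 replicate 2. After median centring all but ERG7 missed the threshold (0.0609, 0.0567, 0.11 and 0.206). Without gal83 replicate 3 or sip2 replicate 3 ERG27, ERG2 and ERG6 did not pass either, nor did ERG7 in the former case and ERG24 in the latter. ERG27, ERG2 and ERG6 also did not pass without sip1 replicate 1 or sip2 replicate 1, ERG2 and ERG6 without sip1 replicate 3 or sip2 replicate 2, and ERG2 without sip1 replicate 2. For 10 members the 3 gal83 arrays lay above all 6 arrays of sip1 and sip2, as for 4.06% of all genes. The UPC2 call held under all 18 alternatives. The count of 8 was 4 without sip1 replicate 1 or sip2 replicate 3 and 5 without sip2 replicate 1. Dropping a gal83 array left 1 (replicate 1), 2 (replicate 2) or 3 (replicate 3). The ATF2 call ended without sip1 replicate 1 or any gal83 array (adjusted p from 0.0652 to 0.141), and that of HES1 without gal83 replicate 1 (0.0549). With the 3 strains fitted alone neither passed (0.149 and 0.129).

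The 7 deletion strains share the 3 reference arrays when each is set against the reference, so their values stand side by side. In sip1, 2 members were higher and 7 lower, beside 10.3% and 29.1% of all genes, and in sip2 1 was higher and 10 lower, beside 8.55% and 32.1%. These shares lie near or below the background. After subtracting array medians the split was 4 higher and 2 lower in sip1, beside 23.3% and 18.8% of all genes, and 2 higher and 4 lower in sip2, beside 22.9% and 18.4%. HMG2 fell by 0.62 ± 0.11 in sip1 and by 0.46 ± 0.11 in sip2. ERG24 fell by 0.33 ± 0.065 in sip1 and by 0.28 ± 0.065 in sip2, where the call ended after median centring (adjusted p = 0.143). ERG27 fell by 0.33 ± 0.056 in sip2, and its difference was -0.19 after median centring. CYB5 rose by 0.36 ± 0.083 in sip1 and by 0.29 ± 0.083 in sip2, where the call ended without reference replicate 3 (adjusted p = 0.0657) or with both strains fitted alone (0.0576). The sip1 count of 9 was 5 without reference replicate 2 or sip1 replicate 1. In sip1 the rise of MVD1 by 0.24 ± 0.092 ended without any reference array or sip1 replicate 1 or 2 (adjusted p from 0.0671 to 0.168), and the fall of HES1 by 0.74 ± 0.26 without reference replicate 1 or 2 or sip1 replicate 1 or 2 (from 0.0938 to 0.186) or after median centring (0.0619).

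In sip1 sip2, which keeps GAL83, 0 members passed by limma, beside 0.110% and 0.147% of all genes called higher and lower. The changes of the members had a median of 0.01 and ran from -0.28 to 0.30. In sip1 gal83, 15 members were higher and 1 was lower, beside 3.60% and 7.30% of all genes. ATF2 rose by 1.90 ± 0.35, ERG26 by 0.49 ± 0.10, MVD1 by 0.47 ± 0.092 and ERG4 by 0.43 ± 0.094. All 14 genes of the sterol branch had a positive change here, where the median change of all genes was -0.01, and 7 passed. The count of 16 was 10 without sip1 gal83 replicate 3. UPC2 rose by 0.58 ± 0.17 (adjusted p = 0.0352), a call that ended without reference replicate 2 or 3 or sip1 gal83 replicate 1 or 3 (adjusted p from 0.0678 to 0.157). HMG2 fell by 0.36 ± 0.11 (adjusted p = 0.0464), which ended without any reference array or sip1 gal83 replicate 1 or 3 (from 0.0561 to 0.208) or after median centring (0.0558).

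In sip2 gal83, 14 members were higher and 4 lower, beside 10.8% and 26.4% of all genes. ATF2 rose by 1.69 ± 0.35, HES1 by 1.10 ± 0.26, CYB5 by 0.51 ± 0.083 and ERG28 by 0.47 ± 0.061. HMG2, SAY1, HMG1 and ECM22 fell, and with both strains fitted alone none of the 4 falls passed (adjusted p = 0.106, 0.242, 0.11 and 0.159). SAY1 fell by 0.36 ± 0.12, a call that ended without reference replicate 3 or sip2 gal83 replicate 1 (adjusted p = 0.154 and 0.106) or after median centring (0.0674). Replicate 1 of this strain read below its other arrays for HMG2, ECM22, MVD1 and NCP1, and its SIP1 value was 9.76 where the others gave 10.57 and 10.50. Without this array 22 members were called in place of 18. With median centring the split was 22 higher and 3 lower, beside 21.7% and 18.0% of all genes.

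In the triple strain 18 members were higher and 4 lower, beside 14.9% and 23.5% of all genes. With median centring the split was 20 higher and 1 lower, beside 21.9% and 16.9%. ATF2 rose by 1.94 ± 0.35, ERG4 by 0.69 ± 0.094, MVD1 by 0.52 ± 0.092 and ERG27 by 0.47 ± 0.056. HMG2, HMG1, IDI1 and ECM22 fell, IDI1 by 0.24 ± 0.049 (adjusted p = 0.000927) and HMG1 by 0.23 ± 0.060 (adjusted p = 0.00636, but 0.0712 after median centring). UPC2 stood at 0.30 ± 0.17 and did not pass (adjusted p = 0.171), and its difference was 0.14 without triple replicate 1. HES1 rose by 0.70 ± 0.26 (adjusted p = 0.0441), a call that ended without reference replicate 2 or 3 or any triple array (adjusted p from 0.07 to 0.168). HMG2 fell by 0.34 ± 0.11 (adjusted p = 0.0214), which ended without reference replicate 3 or triple replicate 2 or 3 (from 0.0556 to 0.0922) or after median centring (0.0576).

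Loss of the other subunits was averaged in the same way. Loss of SIP1 left 12 members higher and 1 lower, beside 17.6% and 7.43% of all genes, with ATF2 up by 0.82 ± 0.17, ERG4 by 0.26 ± 0.047, MVD1 by 0.24 ± 0.046, ERG26 by 0.23 ± 0.051 and NCP1 by 0.19 ± 0.046. Loss of SIP2 left 5 higher and 1 lower, beside 5.98% and 7.43% of all genes, with ERG4 up by 0.20 ± 0.047 and ERG27 by 0.13 ± 0.028. After subtracting array medians the SIP1 split was 9 higher and 1 lower by limma, beside 12.4% and 10.7% of all genes. The SIP2 split was then 6 higher and 0 lower, beside 8.04% and 4.96% of all genes. Without centring, UPC2 passed in neither average (adjusted p = 0.991 and 0.113). The SIP2 count of 6 was 2 without reference replicate 2, sip1 replicate 3, sip2 replicate 1, gal83 replicate 2 or sip1 gal83 replicate 1 or 2. It was 3 without reference replicate 3, sip1 replicate 1, gal83 replicate 1 or 3 or any triple array. The calls of ERG4 and ERG27 for SIP2 held under all 32 alternatives. These averages join backgrounds of unlike sign. ERG27 had a mean of 12.82 in sip2 beside 13.15 in the reference, but 13.58 in sip2 gal83 beside 13.07 in gal83. For ERG4 these means were 13.19 beside 13.30, and 13.71 beside 13.15. ATF2 had a mean of 9.81 in sip1 beside 10.17 in the reference, but 12.07 in sip1 gal83 beside 10.47 in gal83.

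Neighbouring genes of the pathway were counted in 5 lists for the average loss of GAL83. Of 10 genes for other uses of prenyl diphosphates, 6 were higher and 4 did not pass. MOD5, for tRNA modification, rose by 0.32 ± 0.068 and COQ2, for ubiquinone synthesis, by 0.19 ± 0.036. SRT1, for dolichol synthesis and named after its values were seen, had the largest average of this list at 1.03 ± 0.17. It read 7.05, 6.82 and 4.80 in the triple strain and between 2.13 and 2.23 in all other arrays, so that strain alone carried the average. Of 14 genes of steryl ester hydrolysis, sterol transport and control of the enzymes, 7 were higher and 3 lower. ERG29, a further gene of ergosterol synthesis, rose by 0.53 ± 0.035 (adjusted p = 4.74e-09), and DAP1, encoding a haem-binding partner of Erg11, by 0.29 ± 0.052. NCR1, for vacuolar sterol transport, fell by 0.20 ± 0.049.

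Of 16 genes of sterol uptake, oxysterol binding and anaerobic growth, 4 were higher and 3 lower on average. The cell wall mannoprotein gene DAN1 rose by 1.48 ± 0.13 and TIR1, another of these, by 1.06 ± 0.16, while SUT2, encoding a regulator of sterol uptake, fell by 0.38 ± 0.039. The mannoprotein genes did not all rise together. In the triple strain against the reference TIR1 rose by 1.52 ± 0.33 and TIR3 by 0.63 ± 0.19. TIR4 fell there by 1.23 ± 0.23. In that comparison 4 genes of this list were higher and 5 lower, beside 14.9% and 23.5% of all genes. Of 10 genes of haem synthesis and breakdown, 5 were higher and 3 lower, with HEM25 up by 0.39 ± 0.087 and HEM14 by 0.23 ± 0.040. Of 9 regulators of the oxygen, haem and fatty acid response, 1 was higher and 4 lower. ROX1, the repressor of hypoxic genes, fell by 0.40 ± 0.11 (adjusted p = 0.00687). This fall was not particular to strains without GAL83. Against the reference ROX1 was lower by 0.83 ± 0.21 in sip1 and by 0.83 ± 0.21 in sip2, which keep GAL83. In gal83 it was lower by 0.77 ± 0.21. The list counts for the average stand beside 19.6% and 19.7% of all genes called higher and lower.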

How the data were processed

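Array values came from the deposited table of 5716 probe sets by 24 arrays. Its log2 values are the authors' own: the submitters' processing notes name RMA and the affy package. Versions, the arrays normalized together and a genome build are not given in the sources used here. The number of arrays limits the precision. Scanner files were not used.

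Of the probe sets, 5498 name 1 gene, 0 several and 218 none. All 5498 identifiers matched RefSeq's gene table (R64, names only), which updated 12 symbols. The probe set of highest mean was kept for each gene, leaving out 49. No coordinates or sequences are given.

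limma 3.58.1 (R 4.3.3) estimated 1 mean for each strain from the 24 arrays together (16 residual degrees of freedom, no filter on low values), with 14 comparisons and 2 moderated F tests, two-sided, adjusted by Benjamini-Hochberg over 5449 genes. The script was tested on simulated data. Members, gene lists and comparisons were chosen with earlier results of these data known. Array values are printed for UPC2, ECM22 and up to 5 members called each way with the largest change in each comparison, and for ERG8, added after its values were seen. ARE2 and SAY1 are partly given as ranges. No pair of arrays was identical (highest correlation 0.9987). Of 84 pairs of arrays with the same replicate number in different strains, 30 deviated together (correlation over 0.1, at most 0.33). The median over all 84 was 0.036, beside -0.018 for pairs of other numbers. Whether a number marks a shared run was not tested, and the main fit paired no samples. Alternatives were median centring, quantile normalization, leaving out the 25% dimmest genes, eBayes with trend and robust, array weights, a replicate block, the compared groups alone, all probe sets, leaving out 3 doubted arrays, and leaving out each array.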

Additional observations from a re-analysis of the deposited data

Results flagged for a closer look

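The change on loss of GAL83 differed among the 4 backgrounds for 20 of the 32 members by limma's moderated F test, beside 58.2% of all genes, so this share lies near the background. After median centring it was 16 members, beside 61.7% of all genes. In 15 of the 20 the change was lowest between gal83 and the reference, as in 58.0% of all genes that passed. In 11 it was highest between sip2 gal83 and sip2, as in 24.4% of those genes.

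In the mevalonate part the adjusted p was 7.29e-05 for ERG10 (changes from -0.15 to 0.28), 0.000702 for HMG1 (from -0.25 to 0.21), 0.000906 for HMG2 (from -0.63 to 0.26), 0.000139 for ERG8 (from -0.02 to 0.49), 0.0392 for IDI1 and 0.0238 for ERG20. HMG1 and HMG2 had a positive change in the sip1 background and a negative one in the other 3. In the sterol branch it was 0.00364 for ERG9, 4.12e-05 for ERG7, 8.49e-05 for ERG24, 0.00102 for ERG26, 1.47e-06 for ERG27 (from -0.08 to 0.76), 0.0095 for ERG28, 0.0229 for ERG2 and 0.000405 for ERG4 (from -0.15 to 0.62). Among the other members it was 0.00332 for UPC2 (from 0.31, or 0.07 without sip1 sip2 replicate 2, to 1.46), 0.0196 for ECM22 (from -0.52 to 0.25), 0.00118 for NCP1, 0.0203 for CYB5, 0.00411 for ARE1 and 0.000763 for ATF2 (from 0.30 to 3.17).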

How the results depend on the processing

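The average GAL83 loss kept 26 to 28 called members when each array was left out in turn. Counts that moved by more than 1.5 times were, with median centring, 6 for sip2 against reference, 15 for gal83 against reference and 4 for gal83 against the mean of sip1 and sip2. The last was 5 with quantile normalization and 2 with the compared groups alone. Array weights gave 17 for sip2 against reference, 28 for sip2 gal83 against reference and 11 for the average SIP2 loss. The compared groups alone gave 10 (all higher) for sip2 gal83 against reference and 15 for sip2 gal83 against sip2. Of all genes 140 were then higher and 388 lower in the former, and 455 and 252 in the latter. Leaving out each array in turn gave 1 to 9 for gal83 against the mean of sip1 and sip2, 2 to 9 for the average SIP2 loss, 5 to 8 for sip1 against reference, 10 to 16 for sip1 gal83 against reference and 15 to 22 for the triple strain against sip1 sip2. Signs turned, without passing, for UPC2 in sip1 against reference (0.0805 with median centring, 0.101 with quantile normalization, -0.0983 to 0.0556 leaving out each array), UPC2 in sip1 sip2 against reference (0.0248, 0.0272 and, with array weights, 0.0212, and -0.149 to 0.232), UPC2 on average SIP1 loss (-0.0412 to 0.0585), ECM22 in gal83 against reference (0.00897 with median centring) and ECM22 in gal83 against the mean of sip1 and sip2 (-0.000833 to 0.0865). With the replicate number as a block no count moved by over 1.5 times (27 for the average GAL83 loss). HMG2 in sip1 gal83 (adjusted p = 0.0547), HES1 in the triple strain (0.0535) and NCP1 on SIP2 loss (0.059) then missed the threshold. So did ERG2 (0.0608) and ERG6 (0.0584) in gal83 against the mean of sip1 and sip2. With this block ECM22 passed on GAL83 loss (0.0366) and SIP2 loss (0.044). The causes were not tested.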
